A study of Sus scrofa with 12 samples.

Results

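Of 43221 non-control probes on a porcine array, 112 carried much more RNA after 4 days of fat cell differentiation than before it and, on the scale used to choose them, stayed near that level with each of 3 siRNAs against receptor genes. RNA of female pig subcutaneous preadipocytes was hybridised to 12 Agilent arrays of 2 colours. Cy3 carried cells that were transfected with an siRNA and collected on day 4, and Cy5 carried the same reference on each array, untransfected preadipocytes at day 0. There were 4 groups of 3 arrays, given either the AllStars negative control siRNA or one targeting F2RL2, LGR4 or GPR124. All transfected cells were differentiated in medium with 10% serum, 4.5 g/l glucose, insulin at 5 µg/ml, dexamethasone at 0.25 µM, biotin at 33 µM, pantothenate at 17 µM and octanoate at 5 mM. The growth medium held 1.0 g/l glucose. Another label of the F2RL2 arrays spells the target R2RL2, and the titles were followed. The labels name neither the number of animals nor their age, and leave unsaid whether the replicates came from separate cultures.

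The 112 probes were chosen from the values themselves. The measure was the log2 of the processed Cy3 signal over the processed Cy5 signal, minus the array's median over all non-control probes, so that 1 unit is a doubling relative to the typical probe. A probe was kept where the mean of the control siRNA arrays was at least 1.5, where the mean of each targeting siRNA lay within 0.5 of it, and where Cy3 was well above background on all 12 arrays. The control mean reached 1.5 for 1217 probes, and 649 of these were well above background on every array. Among the 649, F2RL2 siRNA left 352 within the limit (54.2%), LGR4 siRNA 275 (42.4%) and GPR124 siRNA 243 (37.4%). All 3 limits held for 112 of the 649, which is 17.3%, and 12 more probes missed the set only through the background condition. The remaining 537 of the 649 are called the other strongly induced probes here.

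Preadipocytes turn into fat cells through a cascade of transcription factors in which C/EBPβ and C/EBPδ act early and PPARγ and C/EBPα later, and the later factors switch on the genes of lipid uptake, synthesis and storage. Insulin and the glucocorticoid dexamethasone are standard inducers of this program, and dexamethasone also acts on many genes directly through the glucocorticoid receptor. F2RL2 encodes a protease-activated receptor (PAR3), LGR4 a receptor for R-spondins that strengthens Wnt signalling, and GPR124 (ADGRA2) an adhesion receptor known as a coactivator of Wnt7 signalling in brain vessels. None of the probe identifiers could be paired with a gene, so the genes behind the 112 probes, the markers of fat cells and the 3 targets were not analysed here. In RNA from whole cultures, a change in the share of differentiated cells and a change in RNA per cell cannot be told apart. Dyes were not swapped, the reference was not transfected, and the growth and differentiation media differed in glucose. Differentiation, glucose, transfection and dye thus cannot be told apart in the day 4 to day 0 ratio.

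Between 24720 and 29381 probes per array were well above background in Cy3. In Cy5 the number was 23594 to 26485 on the GPR124 arrays and 27003 on F2RL2 replicate 3, against 30350 to 32394 on the other 8 arrays. The same 4 arrays had a median log2 ratio below 0 before centring, -0.25 to -0.09, where the other 8 had 0.09 to 0.15. Centring therefore raised those 4 arrays relative to the rest. The 3 slides of 4 arrays each held the control arrays with F2RL2 replicate 1, then F2RL2 replicates 2 and 3 with LGR4 replicates 1 and 2, then LGR4 replicate 3 with the GPR124 arrays. Control siRNA shared no slide with GPR124 or LGR4 siRNA, so those comparisons have no value within a slide, and a fit with the slide as a block reaches them only through the other groups.

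With control siRNA the 112 probes had a median log2 ratio of 1.96 and a range from 1.5 to 6.40. The control mean was between 1.5 and 2 for 60 of them, between 2 and 3 for 30, between 3 and 4 for 15 and at least 4 for 7. The median over the 112 was 1.99, 1.98 and 1.96 on the 3 control arrays, 2.07, 2.02 and 2.33 on the F2RL2 arrays, 2.10, 2.09 and 2.06 on the LGR4 arrays, and 2.22, 2.06 and 2.15 on the GPR124 arrays. All 9 arrays of the targeting siRNAs thus had a median at or above 2.02, and F2RL2 replicate 3 stood highest. These medians do not follow single probes: LGR4 siRNA minus control was below 0 for 71 of the 112, with a median of -0.09. F2RL2 replicate 3 and the GPR124 arrays are those that centring raised. Without centring the median difference of GPR124 siRNA from control was -0.29. As mean ± SD of these array medians (n = 3 arrays each), the groups had 1.98 ± 0.02, 2.14 ± 0.17, 2.08 ± 0.02 and 2.14 ± 0.08. The ratio was above 0 on every array for all 112 probes, at least 1 on every array for 101 and at least 1.5 on every array for 63. The lowest single value was 0.44, on LGR4 replicate 3. The fit of limma called all 112 higher than the reference with control siRNA (adjusted p under 0.05), beside 21.4% of all probes tested, a count that the limit of 1.5 in the rule brings with it.

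The probe with the highest control ratio was AGPOA3-20117. Its log2 ratio was 6.34, 6.63 and 6.22 with control siRNA, 6.51, 6.65 and 6.63 with F2RL2 siRNA, 6.75, 6.81 and 6.26 with LGR4 siRNA, and 6.60, 6.63 and 6.72 with GPR124 siRNA. The arrays of each siRNA overlapped those of the control, and the 12 values spanned 0.58. The means ± SD (n = 3) were 6.40 ± 0.21, 6.60 ± 0.08, 6.61 ± 0.30 and 6.65 ± 0.06, which is 84.2-fold, 96.7-fold, 97.4-fold and 100-fold over the reference relative to the median probe. On the control arrays its mean processed signal was 17800 in Cy3 and 195 in Cy5, and Cy5 was well above background on all 12 arrays. Its difference between GPR124 and control siRNA was 0.25 on this scale, -0.07 without centring and -0.27 after loess normalisation, so its sign depended on the scaling while its size stayed within 0.5.

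The next probes, given by their rank in control ratio, showed how differently members sat within the limits. The probe of rank 2 (62.4-fold with control siRNA) had 5.93, 5.97 and 5.99 with control siRNA, 6.09, 6.07 and 6.48 with F2RL2 siRNA, 5.79, 5.78 and 5.72 with LGR4 siRNA, and 6.60, 5.92 and 6.46 with GPR124 siRNA. All 3 LGR4 arrays lay below the control arrays and all 3 F2RL2 arrays above them. The probe of rank 3 (40.0-fold) had 5.42, 5.28 and 5.27 with control siRNA, 5.27, 5.06 and 5.36 with F2RL2 siRNA, 5.15, 5.05 and 5.08 with LGR4 siRNA, and 4.91, 4.80 and 4.81 with GPR124 siRNA. It was lowest on all 3 GPR124 arrays, at -0.48 from control the nearest member to that lower limit, and it lay outside the limit without centring and after loess, where the difference was -0.87. The probe of rank 4 had 5.22, 5.19 and 4.63 with control siRNA, 4.18, 4.45 and 5.63 with F2RL2 siRNA, 4.71, 4.63 and 4.88 with LGR4 siRNA, and 5.36, 5.86 and 4.82 with GPR124 siRNA. Its 12 values spanned 1.68, and its reference channel was well above background on 5 arrays and on none of the LGR4 or GPR124 arrays, where its ratios are only bounded, at least 15.6-fold and at least 9.07-fold.

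The ranks 5 and 6 followed one another over the arrays. Rank 5 had 4.15, 4.41 and 4.36 with control siRNA, 3.76, 4.66 and 4.44 with F2RL2 siRNA, 4.42, 3.99 and 3.87 with LGR4 siRNA, and 4.53, 3.57 and 3.74 with GPR124 siRNA. Rank 6 had 4.03, 4.25 and 4.15, then 3.66, 4.30 and 4.20, then 4.14, 3.84 and 3.72, then 4.47, 3.65 and 3.76, in the same order of groups. Both were highest among the GPR124 arrays on replicate 1 and lowest among the F2RL2 arrays on replicate 1. After loess normalisation both lay outside the limit with GPR124 siRNA, at -0.71 and -0.70 from control.

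The rule bounds each siRNA's difference from control, so the differences are given as a description and without a test. The 3 comparisons share the control arrays. For the 112 probes, F2RL2 siRNA minus control had a median of 0.02, with 62 probes above 0, 50 below and 68 within 0.25. LGR4 siRNA minus control had a median of -0.09, with 41 above 0, 71 below and 71 within 0.25. GPR124 siRNA minus control had a median of 0.03, with 58 above 0, 54 below and 52 within 0.25. The same medians over all 32346 probes tested were 0.10, -0.02 and 0.36, and over the other strongly induced probes -0.27, -0.62 and -0.73. Among the 649 strongly induced probes, those that left the limits mostly did so downwards. The 649 were chosen by a high control mean, which is also the value subtracted, so the choice itself favours lower differences. F2RL2 siRNA left 209 at least 0.5 lower and 88 at least 0.5 higher, LGR4 siRNA 319 and 55, and GPR124 siRNA 337 and 69. A group of 144 probes was at least 0.5 lower with every siRNA, and 184 were outside the limits for all 3 in either direction. GPR124 siRNA alone kept 82 probes out of the set, LGR4 siRNA alone 64 and F2RL2 siRNA alone 35.

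The fit with limma over all 12 arrays gives the place of the 112 among all probes, and since the rule used the same contrasts nothing is read from these counts. With F2RL2 siRNA 10 of the 112 were called at an adjusted p under 0.05, 7 higher and 3 lower, beside 13.3% of all probes tested (9.4% higher, 3.88% lower). That count was 0 without any one of the 3 control arrays, beside 2370 to 2631 of all 32346 probes tested. It was 4 without F2RL2 replicate 1, beside 3320. Without F2RL2 replicate 3 it was 2 higher and 8 lower, beside 1940 higher and 1557 lower of all probes tested. With LGR4 siRNA 13 were called, 8 higher and 5 lower, beside 17.5% (9.45% higher, 8.04% lower). Without any one control array 5 or 6 were called, beside 3481 to 3793 of all probes tested. Without any one LGR4 array 7 or 8 were called, beside 3874 to 4325. With GPR124 siRNA 25 were called, 17 higher and 8 lower, beside 50.2% (42.5% higher, 7.75% lower). Without any one control array 13 to 15 were called, beside 13601 to 14001 of all probes tested. Without GPR124 replicate 3 the count was 14, beside 13780. Without GPR124 replicate 1 the members called were 10 higher and 14 lower, beside 12401 higher and 2582 lower of all 32343 probes with a value. With the slide as a block the 3 counts were 1, 0 and 0, beside 1445, 794 and 1395 of all probes tested. No siRNA gave a call for 78 of the 112, beside 42.7% of all probes tested. All 3 F2RL2 arrays lay above all control arrays for 21 probes and below them for 13, beside 21.5% and 10.4% of all probes. For LGR4 siRNA these were 17 and 29, beside 21.8% and 24.6%, and for GPR124 siRNA 24 and 19, beside 53.5% and 10.6%. For 38 of the 112 the arrays of each targeting siRNA overlapped the control arrays, beside 20.7% of all probes.

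Closeness to control was a matter of scale for GPR124 siRNA. On the scale of the rule the middle 50% of the 112 lay between -0.23 and 0.30 from control, an interval that the limits in the rule bound. That of all probes tested was 0.06 to 0.70. Centring each array on the median of the 32346 probes tested, in place of all 43221, took the median difference of all tested probes with GPR124 siRNA from 0.36 to 0.04 and that of the 112 from 0.03 to -0.30. Without centring, as in the authors' deposited log2 ratios, the 112 had a median of -0.29 beside 0.04 for all tested probes. After normexp background correction and loess normalisation of the median signals it was -0.39 beside 0.03. On these 3 scales 70, 70 and 72 of the 112 stayed within 0.5 of control with GPR124 siRNA, and the 42, 42 and 40 probes outside all lay below control. Loess called 60 of the 112 with GPR124 siRNA, 2 higher and 58 lower, beside 39.4% of all probes tested (22.5% higher, 16.9% lower). The ratios without centring called 44, all lower, beside 40.5% (22.8% higher, 17.7% lower). The set is described here by its rule. For F2RL2 siRNA the median was 0.02, -0.06, -0.05 and -0.02 on the 4 scales, with 112, 107, 107 and 109 probes within 0.5. For LGR4 siRNA it was -0.09, -0.05, -0.07 and -0.04, with 112, 110, 112 and 107 within 0.5.

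The limits on the group means keep the 112 probes high on this scale and largely on the others, which shift each array or reshape its ratios. All 112 probes were above 0 on every array on all 4 scales, and the lowest single value was 0.38 to 0.60. At least 1 on every array was reached by 101 probes on the scale of the rule, by 96 with either of the other centrings and by 68 after loess. The rule applied anew gave 107 probes with centring on the tested probes, 109 without centring and 65 after loess. Of the 112, 66 (58.9%), 68 (60.7%) and 49 (43.8%) were among them, which is 61.7%, 62.4% and 75.4% of those lists. A core of 41 probes (36.6% of the 112) met the rule on all 4 scales, with control ratios from 1.5 to 6.40 and a median of 2.12. The ranks 1, 2, 7, 8, 9, 11 and 14 were in this core. Cy5 was well above background on all 3 GPR124 arrays for 34 of the 41 and on none of them for 3, ranks 11 and 14 included, whose GPR124 ratios are known only to be at least 6.15-fold and 4.85-fold, so that their closeness to control with GPR124 siRNA is not measured. The ranks 3, 5 and 6 were not, as GPR124 siRNA left them low on the other scales.

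The channels were also read apart, each as the log2 processed signal minus the array's median in that channel. The Cy3 signal of the 112 differed from control by a median log2 of 0.04 with F2RL2 siRNA, -0.11 with LGR4 siRNA and -0.74 with GPR124 siRNA, with 94, 89 and 37 probes within 0.5. Over all probes tested these Cy3 medians were 0.04, -0.09 and -0.19. With GPR124 siRNA 99 of the 112 were dimmer than control in Cy3, and 99 were dimmer in Cy5, which carries the same reference on every array, with a median of -0.30 there. For all 3 siRNAs 24 of the 112 stayed within 0.5 in Cy3 alone. The shares of all probes for these counts are not given here, so the counts do not set the 112 apart from other probes. Before centring, the 22504 probes with Cy3 well above background on all 12 arrays were dimmer with GPR124 siRNA too. Their median signal was 1260 in Cy3 and 1280 in Cy5 with control siRNA, and 902 and 903 with GPR124 siRNA. The part of array quality in these values was not tested.

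Members differed widely in how steady they were. The range over the 12 arrays had a median of 0.84, from 0.33 to 2.34, against a median of 1.90 for the other strongly induced probes, whose wider range follows from the limits in the rule. It was under 0.5 for 7 probes and at least 1 for 41. The steadiest was AGPOA3-51613, rank 62, with 1.94, 1.92 and 1.89 with control siRNA, 1.63, 1.61 and 1.92 with F2RL2 siRNA, 1.81, 1.77 and 1.67 with LGR4 siRNA, and 1.72, 1.75 and 1.66 with GPR124 siRNA. All 3 LGR4 arrays and all 3 GPR124 arrays lay below the control arrays, and F2RL2 replicate 3 fell among the control values. The means ± SD (n = 3) were 1.92 ± 0.03, 1.72 ± 0.17, 1.75 ± 0.08 and 1.71 ± 0.04, or 3.77-fold, 3.29-fold, 3.37-fold and 3.27-fold over the reference. Even this probe left the limit with GPR124 siRNA without centring, at -0.53, and it had -0.40 after loess. The probe of rank 57 came next with a range of 0.386, and had 1.99, 1.96 and 1.91 with control siRNA, 1.93, 1.95 and 2.24 with F2RL2 siRNA, 2.07, 2.07 and 1.85 with LGR4 siRNA, and 2.22, 2.06 and 2.20 with GPR124 siRNA. Its F2RL2 and LGR4 arrays overlapped the control and its GPR124 arrays lay above it on the scale of the rule. Its GPR124 difference was 0.21 there and -0.11 without centring, and it met the rule on all 4 scales. The probe of rank 19 had nearly the same range, 0.388, but its GPR124 difference was -1.26 after loess, the lowest of the 112, and its Cy5 was well above background on none of the GPR124 arrays, so only at least 2.01-fold is known there.

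A mean within the limits did not require each array to be. All 9 targeting arrays were within 0.5 of the control mean for 40 of the 112. By array the number within 0.5 was 97, 106 and 83 with F2RL2 siRNA, 100, 105 and 101 with LGR4 siRNA, and 87, 94 and 89 with GPR124 siRNA. F2RL2 replicate 3 had 27 probes at least 0.5 higher and 2 lower, and GPR124 replicate 1 had 18 higher and 7 lower, so these arrays departed mostly upwards on this scale. Both are among the arrays that centring raised, with medians of -0.09 and -0.25 before it. Their counts on the other scales are not given here. The widest range, 2.34, belonged to rank 31, with 2.68, 2.70 and 2.66 with control siRNA, 1.92, 2.16 and 2.53 with F2RL2 siRNA, 2.94, 2.99 and 2.72 with LGR4 siRNA, and 3.28, 0.93 and 3.15 with GPR124 siRNA. The value of 0.93 is a spot that the scanner software marked as an outlier, the only such spot among the 112 probes. Without it the GPR124 mean is 3.21, which is 0.53 above control, so this probe met the rule only with that spot. Rank 47 had 2.43, 1.87 and 2.36 with control siRNA, 1.28, 0.82 and 3.05 with F2RL2 siRNA, 2.05, 2.39 and 2.45 with LGR4 siRNA, and 1.78, 2.28 and 1.99 with GPR124 siRNA. Its F2RL2 mean of 1.72 ± 1.18 (SD, n = 3) joined arrays far below and far above the control, and its Cy5 was well above background on 8 of 12 arrays.

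The spread within a group was smallest for control siRNA. The median SD over 3 arrays was 0.0833 with control siRNA, 0.22 with F2RL2 siRNA, 0.137 with LGR4 siRNA and 0.189 with GPR124 siRNA, and the other strongly induced probes had 0.105, 0.23, 0.169 and 0.227. The control and GPR124 arrays each lay on 1 slide and the other groups on 2, and the part of the slide in these spreads was not tested. The 4 group means of a probe spanned a median of 0.43, from 0.07 to 0.92, and under 0.25 for 10 probes. GPR124 siRNA gave the highest of the 4 means for 43 probes, F2RL2 siRNA for 34, control siRNA for 22 and LGR4 siRNA for 13. The lowest mean was that of LGR4 siRNA for 43 probes, of GPR124 siRNA for 36, of F2RL2 siRNA for 17 and of control siRNA for 16. The other scales lower the GPR124 values against the rest, so its place in this order belongs to the scale of the rule.

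Where arrays shared a slide the picture could be read within it. On the first slide F2RL2 replicate 1 minus the control arrays had a median of -0.07 over the 112, with 97 within 0.5. On the second slide F2RL2 minus LGR4 siRNA, 2 arrays each, had a median of 0.13 with 102 within 0.5. On the third slide LGR4 replicate 3 minus the GPR124 arrays had a median of -0.20 with 86 within 0.5. The other strongly induced probes had 220, 231 and 182 of 537 within 0.5, a gap that the choice of members on the same arrays largely fixes. These values within a slide are on the scale of the rule and move with centring. Before centring the array medians were 0.15 for LGR4 replicate 3 and -0.25, -0.15 and -0.21 for the GPR124 arrays. On the second slide F2RL2 replicate 3 had -0.09 and the other arrays 0.11 to 0.13. Differences within a slide on the other scales are not given here. Over all arrays, also on the scale of the rule, F2RL2 and LGR4 siRNA differed by at least 0.5 for 9 of the 112. F2RL2 and GPR124 siRNA did so for 16, and LGR4 and GPR124 siRNA for 21.

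Members with a dim reference channel had higher ratios and larger SDs. Cy5 is the divisor of the ratio, so a dim Cy5 by itself goes with a higher ratio. The 649 strongly induced probes, in 4 classes from dim to bright control Cy5, had median control ratios of 2.53, 2.26, 2.01 and 1.96. Cy5 was well above background on all 12 arrays for 78 of the 112 (69.6%) and for 367 of the other 537 (68.3%). Those 78 had a median control ratio of 1.94, a median Cy5 signal of 573 and a median SD of 0.138 with GPR124 siRNA. The remaining 34 had a median control ratio of 2.31, a Cy5 signal of 52.6 and an SD of 0.338 with GPR124 siRNA. For 19 of the 112 none of the 3 GPR124 arrays had Cy5 well above background, and their ratios there have only a lower bound. It is the mean Cy3 level over the higher of the array's lowest level well above background and the probe's own Cy5 level. The levels were taken after Aquantile normalisation of the centred processed signals, without loess, and are open to dye bias. These bounds ran from at least 1.33-fold to at least 9.07-fold with a median of 2.65, where the measured means corresponded to 2.90-fold to 40.7-fold. The highest bound was that of rank 4. On the LGR4 arrays the same held for ranks 4 and 28, with at least 15.6-fold and at least 9.05-fold. On the control arrays no member lacked a Cy5 signal above background altogether, and 111 of 112 had it on all 3.

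The share of probes that met the limits depended on the level of induction. Of all 22504 probes with Cy3 well above background on all 12 arrays, 50.3% lay within 0.5 of control for all 3 siRNAs. The share was 61.4% for control ratios between -0.5 and 0.5, 47.9% between 0.5 and 1.5, 21.9% between 1.5 and 2, 13.7% between 2 and 3, 15.8% between 3 and 4, and 11.5% (7 of 61) at 4 and above. Probes below -1.5 had 5.46%. After loess the share was 80.4% in the middle class and 15.6%, 11.9%, 4.41% and 10.0% in the 4 classes from 1.5 upwards. Being far from the reference in either direction thus went with fewer probes inside the limits on both scales. Brightness made less difference among the 649: in 4 classes of about equal size by control Cy5 signal, from dim to bright, 15.3%, 19.8%, 17.9% and 16% were members, and in 4 such classes by Cy3 signal 19.0%, 17.9%, 17.3% and 14.8%.

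The 112 probes did not follow a single pattern over the arrays. Over the 12 arrays the Pearson correlation of their log2 ratios had a median of 0.14 over 6216 pairs of members, and 24 pairs (0.386%) reached 0.9. Among the other strongly induced probes 5869 of 143916 pairs (4.08%) did. These correlations are over arrays that share the reference RNA, the slides and the siRNA groups, and a narrow band of differences by itself limits them. Joining pairs at 0.9 gave 13 small sets with 33 members in all, and whether the probes of a set belong to 1 gene was not analysed here. The largest set had 4 probes, ranks 49, 50, 79 and 82, with correlations of 0.951 to 0.989. Its mean was 1.85, 1.94 and 1.95 with control siRNA, 2.24, 2.27 and 2.50 with F2RL2 siRNA, 2.41, 2.33 and 2.26 with LGR4 siRNA, and 2.12, 1.94 and 1.90 with GPR124 siRNA. All F2RL2 and LGR4 arrays lay above all control arrays in this set, and the GPR124 arrays overlapped them on the scale of the rule. Without centring the 4 probes lay -0.27 to -0.22 from control with GPR124 siRNA. In another set, ranks 78 and 92, the mean was 1.72, 1.60 and 1.74 with control siRNA, 2.11, 1.77 and 2.26 with F2RL2 siRNA, 1.18, 1.36 and 1.30 with LGR4 siRNA, and 1.97, 2.08 and 2.15 with GPR124 siRNA. There the LGR4 arrays lay below and the F2RL2 and GPR124 arrays above the control on the scale of the rule. The GPR124 part belongs to that scale: its differences from control were 0.35 and 0.41 there, but 0.03 and 0.09 without centring.

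The limits fell inside a continuous spread of values. The members nearest to the lower limit on the control ratio had 1.501, 1.504 and 1.509, and the nearest probes outside had 1.486, 1.486 and 1.485. For F2RL2 siRNA the outermost member was 0.48 above or 0.499 below control and the next strongly induced probe 0.512 above or 0.501 below. For LGR4 siRNA these were 0.484 and 0.492 inside and 0.543 and 0.511 outside, and for GPR124 siRNA 0.498 and 0.481 inside and 0.58 and 0.507 outside. A limit of 0.3 would have kept 34 probes and a limit of 1 would have kept 320.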

How the data were processed

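Spots were quantified with Agilent Feature Extraction 9.5.3.1, per the file headers. Per the file headers, the deposited processed intensity of each channel had its background subtracted and its dyes normalized there. The deposited median spot and background intensities carry no normalization and served the loess alternative. The authors' value table holds log2 ratios of processed Cy3 over Cy5, and differed from that ratio by at most 5e-10. Its scale and direction are therefore known, and its columns are not centred. The deposited log10 ratio column, Cy5 over Cy3, served only to check direction.

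The measure was the processed log2 ratio minus the array median over 43221 non-control probes. The 1417 control spots were left out. Tests used limma (version 3.58.1, under R 4.3.3) with a coefficient for each group over the 12 arrays, p-values adjusted by Benjamini-Hochberg (threshold 0.05), on the 32346 probes that at least 3 arrays showed well above background in one and the same channel. For GPR124 siRNA 32344 had a value. Spots marked as outliers were left out of the fit but kept in the means. The 4 arrays of the third slide, LGR4 replicate 3 and the GPR124 arrays, had 335, 280, 214 and 154 of them. The other 8 arrays had 1 to 4. The fit was tested on simulated data without slide or array effects, so that check does not cover groups that lie on different slides. Where replicates are not separate cultures, p-values cover the spread of these arrays alone, which may be technical, and the number of arrays limits precision. The common reference is 1 sample whose own spread is left out of the test against it.

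No probe identifier matched a gene table, so the gene lists were not used. By the rule for named probes only the member with the highest control ratio and that with the smallest range carry an identifier. The members and lists were chosen with earlier results of these data known. Alternatives were other scalings, Cy3 alone, other filters on dim probes, other limits, leaving out each array, and blocks for replicate number and slide. Centring on the probes tested, and asking for Cy5 above background on all 12 arrays, were added after seeing the data.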

Additional observations from a re-analysis of the deposited data

How the results depend on the processing

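The number of probes meeting the rule, 112 as reported, was 65 after normexp and loess, 34 and 320 with limits of 0.3 and 1, 324 and 52 with control ratios of at least 1 and 2, 40 where every targeting array had to be within 0.5, and 104 to 129 leaving out 1 array. Of the 112 probes, those called with F2RL2, LGR4 and GPR124 siRNA (10, 13 and 25) became 23, 29 and 60 after loess. Over all probes tested (32346, and 32344 for GPR124 siRNA) loess called 5803, 7456 and 12748. Without centring the members called were 18 (F2RL2) and 44 (GPR124), beside 5741 and 13097 of all probes tested. In Cy3 alone they were 6 and 69. Without a filter on dim probes F2RL2 had 6, beside 3326 of 43221. With slide as a block the members called were 1, 0 and 0. The control shares no slide with LGR4 or GPR124 siRNA and shares 1 with F2RL2 siRNA, and the cause of the lower counts was not tested. Leaving out 1 array gave 0 to 15, 5 to 15 and 13 to 32. Over all probes tested, 4296, 5657 and 16239 were called; Cy3 alone gave 2509 for F2RL2 and 8888 for GPR124 siRNA, the slide block 1445, 794 and 1395, and leaving out 1 array 2370 to 5758, 3481 to 6771 and 13601 to 17365. Control against the reference gave 19053 calls, 11090 with the slide block and 15476 to 20038 without 1 array; all 112 probes were called higher in each of those fits. Where no cause is named, the cause was not tested.

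The share of calls that were higher depended on scale: with GPR124 siRNA 84.6%, against 57% after loess, 56.3% without centring, 26.4% in Cy3 alone and 74.6% with the slide block. With F2RL2 siRNA it was 70.8%, against 55.7%, 54.5%, 55.4% and 54.7%, and 81.4% and 55.5% without F2RL2 replicate 2 or 3. With LGR4 siRNA it was 54%, against 43.6% in Cy3 alone, and for the control against the reference 36.3%, against 48.7% without centring.

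Replicate numbers did not pair the targeting arrays with the control arrays, whose same-numbered deviations correlated at -0.21 to 0.10. Over all 18 same-numbered pairs the range was -0.29 to 0.30, and 4 of 12 arrays matched their own number best. The 3 pairs over 0.1 were those of LGR4 with GPR124 siRNA (0.30, 0.24 and 0.11), whose pairs of unlike number had -0.23 to 0.03. F2RL2 replicate 2 correlated more, at 0.36 with LGR4 replicate 1 and 0.35 with GPR124 replicate 1. A pairing of LGR4 and GPR124 arrays by number is thus not established, and no test was made between these groups. With the replicate number as a block 5, 9 and 19 of the 112 were called with F2RL2, LGR4 and GPR124 siRNA. Over all probes tested that fit called 3327, 4673 and 15338. A dim reference channel limits the ratios of 34 of the 112, each on at least 1 GPR124 array.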
